A study of Mus musculus with 30 samples.

Results

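Genes of motile cilia and of the axoneme were measured by RNA-seq in primary cultures of microglia, the macrophages that reside in the mouse brain. They were chosen by symbol: rows of the deposited table beginning with Dnah, Dnai, Dnaic, Dnali, Dnaaf, Rsph, Tekt, Cfap, Spag, Spef or Ift, together with Foxj1, Ccdc39, Ccdc40, Ccdc113 and Ccdc114. The rule gave 74 of the 13788 genes in the table and used no measured value. They were divided into 53 motile axoneme genes, 14 intraflagellar transport genes and 7 genes of general or unclear role, among them Cfap20, an axonemal protein that is not particular to motile cilia.

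RNA was sequenced from 30 libraries in 10 groups of 3. Groups labelled PD-1 KO and groups labelled WT were each taken at 0 h without amyloid-beta, and at 2 h and 8 h with amyloid-beta, given in conditioned medium, and without it. The cells were grown from mouse brains and collected by shaking, and the labels name no other allele or agent in any group. The labels do not say which medium the untreated cultures received, how old the mice were, or whether the 3 libraries of a group are from separate animals. The p-values therefore reflect only how these libraries vary, which may be technical.

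A motile cilium beats because dynein arms slide its microtubule doublets against each other, with radial spokes and a central pair of microtubules shaping the stroke. Foxj1 is a transcription factor that switches on the genes of motile cilia. In the brain such cilia are borne by ependymal cells, which line the ventricles. Intraflagellar transport carries material along all cilia, including the immotile primary cilium found on many cell types, so its genes are far more widely expressed.

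Regulatory factor X (RFX) proteins bind an X-box motif in promoters of many ciliary genes, so promoter windows were searched for it. RefSeq windows (GRCm38.p6, 250 bases before to 50 after the start site) were at hand for 64 of the 74 genes, 47 of them motile axoneme and 11 intraflagellar transport genes. A gene counted as having a match if any of its windows, 32851 in all for 27025 genes, held it. On either strand, a loose X-box pattern (GTNNCC and NGNNAC, 2 bases apart) was found in 15 of 47 motile axoneme genes (31.9%). It was in 2 of 11 intraflagellar transport genes (18.2%) and in 5.26% of the 27025 genes (6.81% of 10463 genes in the table). A stricter form (GTNNCC and GGNNAC, 2 bases apart), whose matches all meet the loose one, was in 4 of 47 (8.51%), 2 of 11 (18.2%) and 2.16% (2.88% in the table). The strictest (GTTGCC and GGNAAC, 2 bases apart) was in 0 of 47, 0 of 11 and 0.355% (0.449%). The core GTTGCC, which overlaps these, was in 20 of 47 (42.6%), 5 of 11 (45.5%) and 14.1% (15.2%). The forkhead core GTAAACA was in 2 of 47 (4.26%) against 4.05% of all genes and 3.11% of those in the table, TGTTTGT in 1 of 47 (2.13%) against 7.6% and 5.45%, and the CCAAT box in 19 of 47 (40.4%) against 41.1% and 42.7%. Of intraflagellar transport genes, a small set, 8 of 11 (72.7%) had the CCAAT box, and 0 of 11 had GTAAACA or TGTTTGT. A match describes letters only and does not show that a factor binds there.

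The windows below show the X-box letters in the 4 motile axoneme genes with the largest difference between the labelled genotypes among those with a match, and in the intraflagellar transport gene chosen in the same way. They lie at chr16:44394549-44394848 (Cfap44, plus strand), chr11:72361833-72362132 (Tekt1, minus strand), chr11:69549059-69549358 (Dnah2, minus strand), chr1:69826720-69827019 (Spag16, plus strand) and chr16:49699044-49699343 (Ift57, plus strand). Each is written 5′ to 3′ on the strand of its gene, and capitals mark the match to the loose X-box pattern on either strand, of which Ift57 has 2.
Cfap44: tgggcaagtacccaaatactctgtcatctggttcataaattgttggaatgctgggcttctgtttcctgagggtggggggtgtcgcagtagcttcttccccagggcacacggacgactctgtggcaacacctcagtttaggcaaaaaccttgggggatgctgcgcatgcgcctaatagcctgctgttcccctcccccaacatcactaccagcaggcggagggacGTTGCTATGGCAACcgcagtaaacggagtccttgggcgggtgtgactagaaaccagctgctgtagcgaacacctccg
Tekt1: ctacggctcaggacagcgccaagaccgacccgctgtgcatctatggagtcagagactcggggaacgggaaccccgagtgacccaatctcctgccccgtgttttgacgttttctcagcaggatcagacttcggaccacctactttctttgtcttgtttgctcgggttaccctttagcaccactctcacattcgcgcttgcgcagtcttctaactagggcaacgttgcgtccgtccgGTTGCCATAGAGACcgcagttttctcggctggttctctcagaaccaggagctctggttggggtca
Dnah2: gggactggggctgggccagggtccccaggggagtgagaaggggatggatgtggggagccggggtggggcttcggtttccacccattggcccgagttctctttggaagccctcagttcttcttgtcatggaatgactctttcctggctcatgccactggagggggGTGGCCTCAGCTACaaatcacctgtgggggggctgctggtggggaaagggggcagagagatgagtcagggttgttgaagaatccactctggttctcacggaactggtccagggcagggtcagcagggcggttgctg
Spag16: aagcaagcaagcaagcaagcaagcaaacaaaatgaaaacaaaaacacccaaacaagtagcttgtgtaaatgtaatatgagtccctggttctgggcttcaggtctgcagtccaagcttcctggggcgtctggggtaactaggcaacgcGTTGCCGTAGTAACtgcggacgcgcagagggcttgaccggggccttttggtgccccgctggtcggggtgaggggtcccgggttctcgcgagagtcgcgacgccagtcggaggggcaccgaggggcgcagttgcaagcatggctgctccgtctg
Ift57: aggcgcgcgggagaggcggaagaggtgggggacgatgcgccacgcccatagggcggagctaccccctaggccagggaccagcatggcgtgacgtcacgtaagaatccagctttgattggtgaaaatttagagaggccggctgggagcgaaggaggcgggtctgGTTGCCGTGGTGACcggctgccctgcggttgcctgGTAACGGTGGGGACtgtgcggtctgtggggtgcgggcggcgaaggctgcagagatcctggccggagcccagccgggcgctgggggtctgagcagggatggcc

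Before the members, the labels and libraries were checked. Pdcd1, the gene of PD-1, went against the genotype labels: it ran from 6.02 to 25.3 (median 12.85) over the 15 libraries labelled PD-1 KO, while all 15 labelled WT lay at the floor of 1. The labels do not say which stretch of the gene was deleted, and whether these reads lie outside it was not tested. Genotypes are named as on the labels throughout. Values are the authors' scaled gene counts with a floor of 1, and whole reads recovered from them came to 4227019 to 48509985 per library. Markers of microglia were high in both: 14 of 14 were in the table, and they summed to 59177 to 111392 (PD-1 KO label) and 74089 to 137786 (WT label). Their sums were lower under the PD-1 KO label, without overlap, at 2 h with and without amyloid-beta and at 8 h with amyloid-beta. At 2 h without it they were 69742 to 91291 in PD-1 KO libraries and 110595 to 132917 in WT libraries. With amyloid-beta at 2 h they were 59177 to 71718 against 114519 to 137786. At 8 h with it they were 59628 to 67167 against 80541 to 80942. At 0 h and at 8 h without amyloid-beta they overlapped. The library numbers of all 8 h samples follow a gap after those of 0 h and 2 h, so 8 h and that later number range cannot be told apart. Within PD-1 KO groups, 5 libraries were the highest or the lowest for 46 or more of the 53 motile axoneme genes: replicate 1 at 0 h and replicate 2 with amyloid-beta at 2 h and at 8 h (highest), and replicate 1 at 2 h and replicate 3 at 2 h with amyloid-beta (lowest).

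Across nearly every structure of the axoneme, motile axoneme genes had higher levels under the PD-1 KO label than under the WT label. Over the 5 conditions, 50 of 53 were higher and 0 lower at an adjusted p under 0.05 (limma, Benjamini-Hochberg over 13722 genes), against 30.3% of all tested genes higher and 29.1% lower. The median log2 difference was 3.39, with a range of -0.18 to 5.63, against -0.02 over all tested genes. Leaving out any 1 library, the 5 above included, gave 50 to 51 calls. In 40 of the 53, all 15 libraries labelled PD-1 KO lay above all 15 labelled WT, as they did for 7.64% of tested genes. All 53 passed the filter on low values, but 16 did so only through libraries labelled PD-1 KO, so the filter itself favoured a difference in them. The counts above include these 16, and the count without overlap is given only with them. Of the 37 that would pass on WT libraries alone, 34 were higher and 0 lower (median 3.39), and role by role the counts below are of those. With quantile normalization 49 of 53 were higher and 1 lower, while the calls over all genes moved to 3257 higher and 6271 lower, against 4163 and 3995 with the authors' scaling. More cells of a type and more RNA per cell cannot be told apart in bulk libraries.

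The summed level of the 53 genes was 4389 to 17264 (median 9210) under the PD-1 KO label and 1072 to 2103 (median 1336) under the WT label. At 0 h it was 12795, 4463 and 4389 in the PD-1 KO libraries against 1608, 1884 and 1405 in the WT libraries. Every PD-1 KO library lay above every WT library there, with replicate 1 far above the other PD-1 KO libraries. At 2 h with amyloid-beta it was 12815, 17264 and 7472 in PD-1 KO libraries against 1102, 1506 and 1229 in WT libraries. At 2 h without it the sum was 6070, 10495 and 9087 in PD-1 KO libraries against 1272, 1336 and 1359 in WT libraries. At 8 h with amyloid-beta it was 8699, 17068 and 8961 in PD-1 KO libraries against 1193, 1072 and 1185 in WT libraries, and at 8 h without it 9391, 13000 and 9210 in PD-1 KO libraries against 2103, 1964 and 1328 in WT libraries. The groups did not overlap in any condition.

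**Figure D1:**
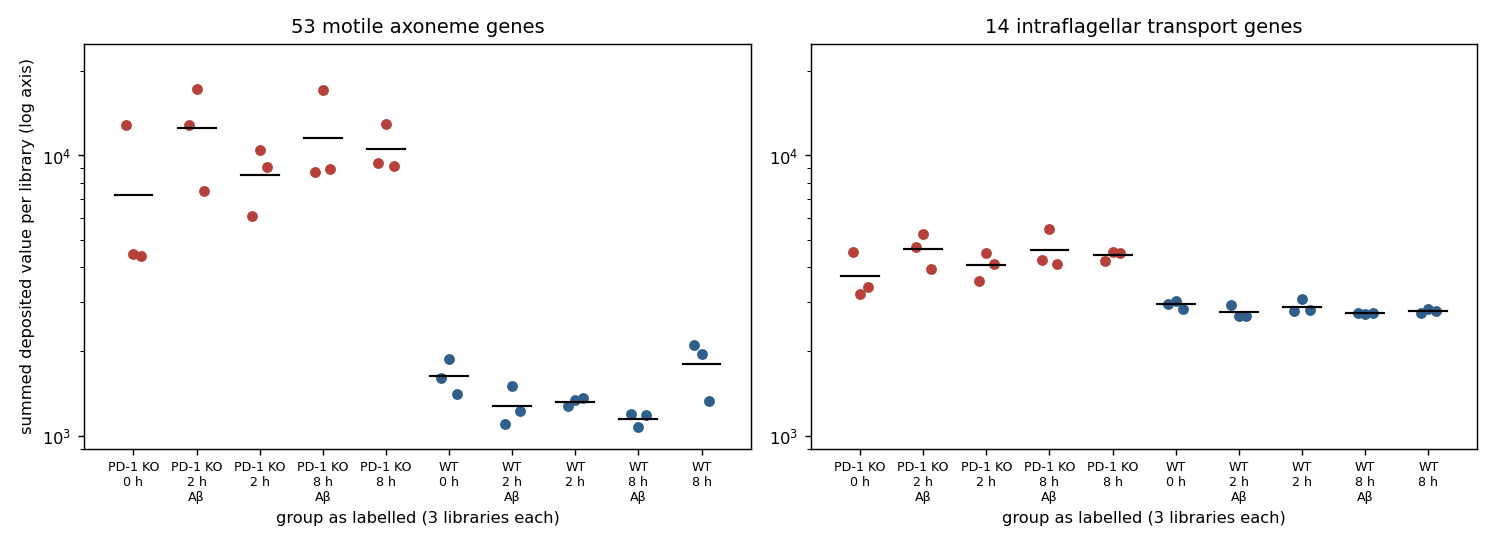
Summed deposited values (log axis) of the 53 motile axoneme genes (left panel) and 14 intraflagellar transport genes (right panel) in each library, by group as labelled. Points are libraries and bars are means of 3; the motile sums are 4389 to 17264 in PD-1 KO libraries, above the 1072 to 2103 in WT libraries, and the transport sums are 3200 to 5473 in PD-1 KO libraries and 2668 to 3071 in WT libraries.

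The sum was made up differently in the labelled genotypes. Foxj1 gave 15.5% ± 1.62 of it in PD-1 KO libraries and 8.06% ± 3.19 in WT libraries (SD, n = 15 each). Dnah6 gave 6.19% ± 0.89 in PD-1 KO libraries and 1.04% ± 0.76 in WT libraries. Dnaaf5, a factor that helps to assemble dynein arms in the cytoplasm, gave 3.56% ± 1.28 in PD-1 KO libraries and 18.7% ± 3.51 in WT libraries, and Rsph3a gave 3.02% ± 1.63 in PD-1 KO libraries and 15.7% ± 3.46 in WT libraries. Both differed little between the labels in level.

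Markers of ependymal cells, astrocytes and the oligodendrocyte lineage were also higher in sum. For the counts that follow, 30.3% of all tested genes were higher and 29.1% lower. All 15 ependymal markers outside the members were higher under the PD-1 KO label (median log2 difference 4.30, range 0.51 to 5.43), and 7 of them are themselves axoneme genes. Of the 10 that pass the filter on WT libraries alone, 10 were higher (median 4.11). Their summed level was 5304 to 11075 in PD-1 KO libraries and 2258 to 3341 in WT libraries. Tmem212, a defining ependymal marker, averaged 114 ± 65.2 in PD-1 KO libraries and 1.56 ± 1.32 in WT libraries (SD, n = 15 each), 11 of which were at the floor. Tmem212 passed the filter only through PD-1 KO libraries, so the filter itself favoured a difference. All 12 astrocyte markers in the table were higher (median 2.79), with sums of 11978 to 30408 in PD-1 KO libraries and 1344 to 4261 in WT libraries. Of 7 choroid plexus markers in the table, 2 were higher, near the share over all tested genes, and 0 lower. Their sums were 390.9 to 2066 in PD-1 KO libraries and 390.8 to 1861 in WT libraries. In the oligodendrocyte lineage list of 12, 8 markers had higher and 3 lower levels, with sums of 6754 to 11156 in PD-1 KO libraries and 2538 to 5787 in WT libraries, which did not overlap. Of 8 neuron markers 3 were higher and 5 lower, with overlapping sums of 1053 to 1817 in PD-1 KO libraries and 567.7 to 1162 in WT libraries. Of 7 fibroblast and vascular markers 4 were higher and 1 lower, with sums of 118 to 704.1 in PD-1 KO libraries and 52.46 to 281.2 in WT libraries. Of the 5 that pass the filter on WT libraries alone, 2 were higher and 1 lower. Of 14 microglia and macrophage markers, 4 were higher, near the share over all tested genes, and 7 lower. The part of these cells in the result was not tested.

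Foxj1, the transcription factor (chromosome 11, 116330704 to 116335399, minus strand, GRCm38), ran from 707 to 2734 (median 1599) in the 15 PD-1 KO libraries and from 50.7 to 271 (median 97.95) in the 15 WT libraries, and the groups did not overlap. Its mean was 1550 ± 587 in PD-1 KO libraries and 124 ± 75.6 in WT libraries (SD, n = 15 each). Its log2 difference over all conditions was 3.76 ± 0.16 (SE, adjusted p = 1.59e-17). Per kilobase of exon it was the highest of the 53 in PD-1 KO libraries, at 591 against 47.3 in WT libraries. Other regulators of motile ciliogenesis, from a list of 16 genes in the table, were higher for 12 and lower for 1, and for 7 and 1 of the 11 that pass the filter on WT libraries alone. Trp73, which acts early in multiciliated cells, averaged 57.1 ± 26.3 in PD-1 KO libraries and 3.61 ± 2.93 in WT libraries (log2 difference 3.71 ± 0.23). Trp73 passed the filter only through PD-1 KO libraries, so the filter itself favoured a difference. Rfx2 was higher by 2.88 ± 0.16 and Rfx3 by 1.94 ± 0.13, both RFX factors that bind X-boxes, and Mcidas by 1.88 ± 0.26. E2f4 was lower by 0.20, with 493 ± 43.1 in PD-1 KO libraries and 565 ± 40.4 in WT libraries. These genes are named after their values were seen.

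Outer dynein arms supply most of the power of the stroke, and 5 of their 6 genes were higher. The heavy chain Dnah11 (chromosome 12, 117877982 to 118199043) was at 91.0 to 655 (median 311) in PD-1 KO libraries and at 1 to 37.1 in WT libraries, a log2 difference of 5.63 ± 0.31. Dnah5, another heavy chain (chromosome 15, 28203752 to 28472052), was at 137 to 719 (median 355) in PD-1 KO libraries and at 1 to 38.2 in WT libraries, and differed by 5.40 ± 0.35. Dnah9, also a heavy chain, averaged 447 ± 185 in PD-1 KO libraries and 18.7 ± 15.5 in WT libraries (4.74 ± 0.26). The sixth gene, Dnah17, is known as the outer arm heavy chain of sperm. It was at 4.11 to 24.1 (median 11.8) in PD-1 KO libraries and averaged 14.4 ± 7.37 in WT libraries, a difference of -0.18 ± 0.21 (adjusted p = 0.469), and its groups overlapped. With quantile normalization it was called lower (-1.09). Ccdc114, a protein that docks the outer arm on the doublet, averaged 153 ± 55.2 in PD-1 KO libraries and 14.2 ± 7.13 in WT libraries (3.39 ± 0.18).

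Inner dynein arms set the shape of the bend, and 5 of their 8 genes pass the filter on WT libraries alone. All 5 were higher, and Dnah2, Dnah7a and Dnah7c passed only through PD-1 KO libraries. Dnah6 (chromosome 6, 73017606 to 73221651) was at 190 to 1195 (median 609) in PD-1 KO libraries and at 1 to 58.9 in WT libraries, a log2 difference of 5.52 ± 0.30. Dnali1, a light chain, was at 53.7 to 269 (median 156) in PD-1 KO libraries and averaged 7.40 ± 6.78 in WT libraries (4.43 ± 0.22). Dnah7a, Dnah7b and Dnah7c are near-identical copies, so reads may be split among them in a way the sources do not give. Of these Dnah7b was the highest, with 209 ± 94.4 in PD-1 KO libraries and 22.9 ± 11.3 in WT libraries. Of the 5 genes that fold and assemble dynein arms before they enter the cilium, all but Dnaaf1 pass that filter, and 3 of these 4 were higher, among them Dnaaf3 by 1.48 ± 0.14 and Dnaaf5 by 0.28 ± 0.06. Dnaaf2 was at 94.3 to 163 in PD-1 KO libraries and averaged 104 ± 19.8 in WT libraries, and differed by 0.17 ± 0.08 (adjusted p = 0.076). It was called higher, at 0.19, without replicate 1 of WT at 8 h, of WT at 8 h with amyloid-beta or of PD-1 KO at 8 h with amyloid-beta, and was -0.14 with quantile normalization.

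Radial spokes and the central pair pass the signal that coordinates the arms. Rsph4a, a spoke head protein (chromosome 10, 33905111 to 33916021), was at 139 to 944 (median 427) in PD-1 KO libraries and averaged 14.1 ± 14.6 in WT libraries, a log2 difference of 5.38 ± 0.27. Rsph3a and Rsph3b are near-identical copies whose reads may be shared. They differed by far less: Rsph3a averaged 258 ± 35.6 in PD-1 KO libraries and 218 ± 35.1 in WT libraries (0.25 ± 0.07, not called with quantile normalization, at 0.14), and Rsph3b 229 ± 35.8 in PD-1 KO libraries and 174 ± 26.5 in WT libraries (0.40 ± 0.08). Of the 6 radial spoke genes 5 pass the filter on WT libraries alone, and of the 10 central pair genes 6. All of these were higher, with a median of 1.84 for the spokes and 3.74 for the central pair. Spag6, a central pair protein, was at 96.7 to 534 (median 284) in PD-1 KO libraries and averaged 10.4 ± 10.9 in WT libraries (5.16 ± 0.24). Mouse Spag6 has a near-identical copy, Spag6l, and the annotation behind the table is not given, so which of them the row counts is uncertain. Cfap46 differed by 4.58 ± 0.24 and Spef2 by 3.01 ± 0.19. Spag16 had 920 reads over the 15 PD-1 KO libraries and 2 reads over the 15 WT libraries, 13 of which were at the floor. Spag16 passed the filter only through PD-1 KO libraries, so the filter itself favoured a difference.

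Ccdc39 and Ccdc40 form the ruler that spaces the repeating units of the doublet. Ccdc39 averaged 254 ± 121 in PD-1 KO libraries and 24.3 ± 8.34 in WT libraries (3.24 ± 0.20), and Ccdc40 averaged 250 ± 91.7 in PD-1 KO libraries and 17.6 ± 8.99 in WT libraries (3.88 ± 0.21). Ccdc113, a further axonemal protein, differed by 4.65 ± 0.22, but passed the filter only through PD-1 KO libraries. Tektins form filaments inside the doublets. Tekt1 averaged 182 ± 74.6 in PD-1 KO libraries and 7.42 ± 6.84 in WT libraries (4.77 ± 0.24), and Tekt4 38.9 ± 18.2 in PD-1 KO libraries and 1.79 ± 1.10 in WT libraries (3.76 ± 0.22). Tekt4 passed the filter only through PD-1 KO libraries. Of the 2 tektin genes that pass on WT libraries alone, 1 was higher. Tekt2 averaged 14.3 ± 6.23 in PD-1 KO libraries and 10.7 ± 5.22 in WT libraries, a difference of 0.40 ± 0.24 that was not called (adjusted p = 0.149), was called higher without replicate 3 of PD-1 KO at 0 h (0.52), and was -0.50 with quantile normalization. Of the 10 other cilia and flagella associated genes, 5 pass the filter on WT libraries alone, and all 5 were higher, from 2.64 to 4.90, led by Cfap44 (4.90 ± 0.30), which sperm flagella need.

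**Figure D2:**
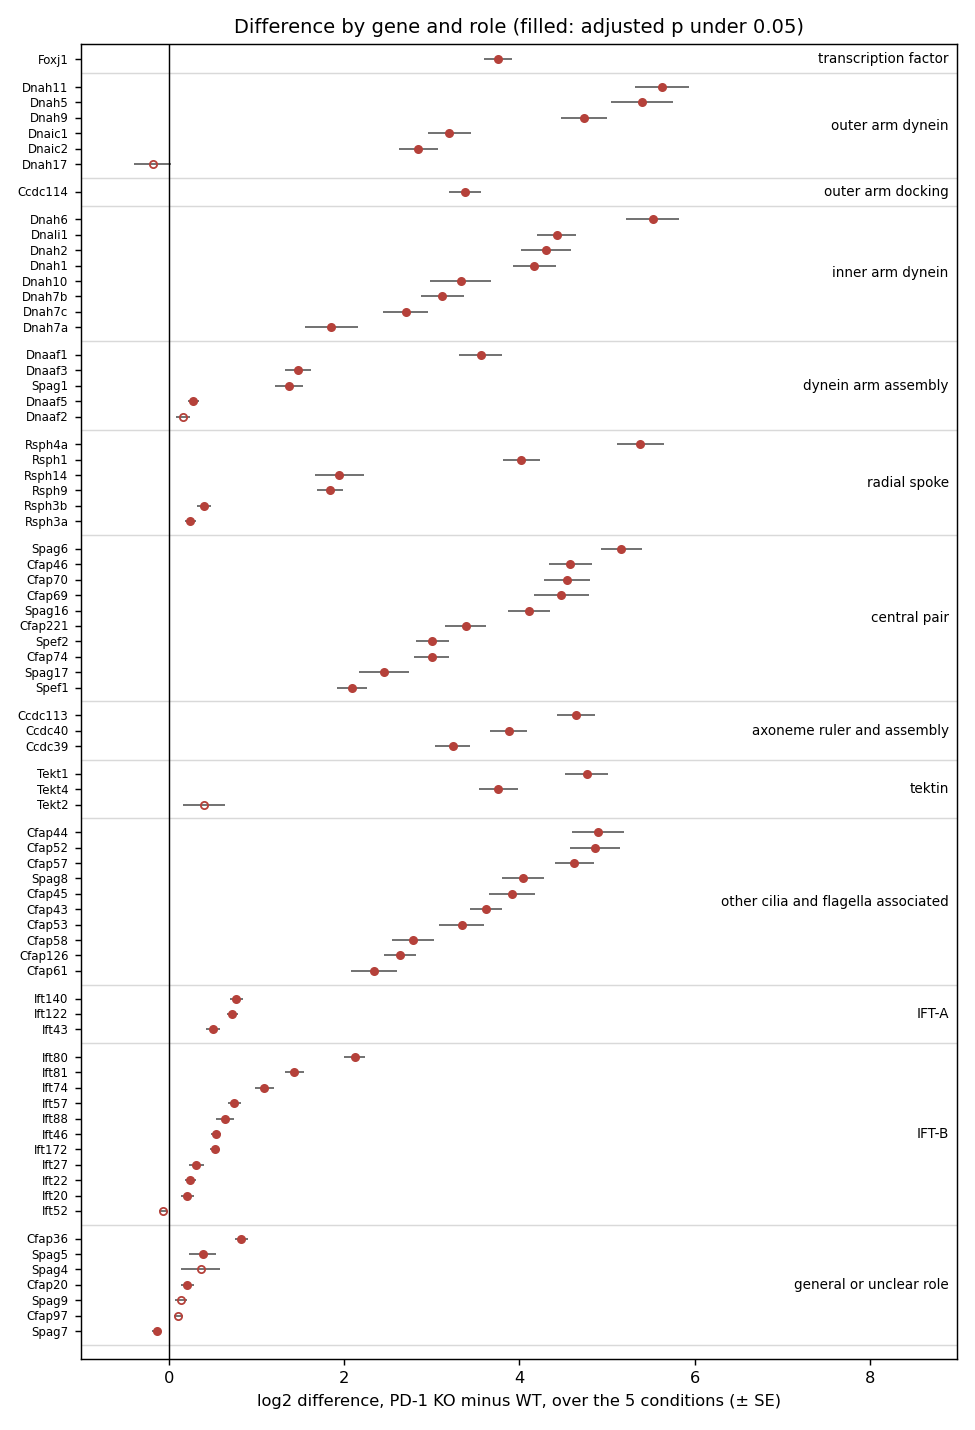
Log2 difference between libraries labelled PD-1 KO and WT over the 5 conditions, with its SE, for each of the 74 genes in order of role. Filled points passed an adjusted p of 0.05; Dnah11 has the largest difference (5.63), and the open points among motile axoneme genes are Dnah17, Dnaaf2 and Tekt2.

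A list of 75 further axoneme genes, outside the members, held 74 that were higher and 0 lower. Of the 41 that pass the filter on WT libraries alone, 40 were higher, with a median of 3.12. The exception was Ropn1l, at 44.8 in PD-1 KO libraries and 47.8 in WT libraries on average. Ccdc108 averaged 272 in PD-1 KO libraries and 6.02 in WT libraries (5.62 ± 0.34), Hydin of the central pair 259 ± 138 in PD-1 KO libraries and 6.93 ± 8.69 in WT libraries (5.40 ± 0.28), and Ak7 324 ± 152 in PD-1 KO libraries and 7.84 ± 7.44 in WT libraries (5.43 ± 0.30). The list was drawn up with earlier results of these data known.

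Intraflagellar transport genes had smaller differences in the same direction. Over the 5 conditions 13 of 14 were higher and 0 lower under the PD-1 KO label, with a median log2 difference of 0.59 and a range of -0.07 to 2.12, against 30.3% of all tested genes higher and 29.1% lower. The labelled genotypes did not overlap for 4 of 14, with the PD-1 KO libraries above, as they did for 7.64% of tested genes. All 14 passed the filter in either genotype alone. Their sum was 3200 to 5473 (median 4234) in PD-1 KO libraries and 2668 to 3071 (median 2787) in WT libraries, and its lowest PD-1 KO library lay above the highest WT library. With quantile normalization 10 were higher and 0 lower. Ift52, of the IFT-B complex that carries cargo outward (chromosome 2, 163017354 to 163046141), was at 401 to 636 in PD-1 KO libraries and averaged 503 ± 42.2 in WT libraries. It differed by -0.07 ± 0.05 (adjusted p = 0.248) and was called lower without replicate 2 of PD-1 KO at 2 h with amyloid-beta (-0.10). Ift172 differed by 0.52 ± 0.05, Ift46 by 0.54 ± 0.06, and Ift140, of the IFT-A complex that returns cargo, by 0.77 ± 0.08. The largest differences, named after their values were seen, were in Ift80 (2.12 ± 0.12), Ift81 (1.43 ± 0.11) and Ift74 (1.09 ± 0.11). Ift80 averaged 358 ± 108 in PD-1 KO libraries and 80.8 ± 20.1 in WT libraries.

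The heat map of all 74 genes shows each library. Among the 7 genes of other or unclear role, 3 were higher and 1 lower, against 30.3% and 29.1% of all tested genes. A set of 7 is too small to compare with those shares. Cfap36 averaged 465 ± 80.1 in PD-1 KO libraries and 261 ± 40.7 in WT libraries (0.83 ± 0.07). Cfap20 was higher by 0.21 ± 0.07 and Spag5 by 0.38 ± 0.15. Spag9, a scaffold of kinase signalling, differed by 0.14 ± 0.07 (adjusted p = 0.076) and was called higher with quantile normalization (0.25) or without replicate 3 of PD-1 KO at 0 h or 8 h, replicate 1 of WT at 2 h or replicate 2 of WT at 2 h with amyloid-beta (0.16 to 0.17). Cfap97 differed by 0.11 and was called without replicate 3 of WT at 0 h or 2 h (0.12). Spag4, which was not called, differed by 0.36 and was called lower with quantile normalization (-0.69). Spag7 was lower by 0.14, with 409 ± 38.1 in PD-1 KO libraries and 454 ± 76.8 in WT libraries, and was not called without replicate 1 of WT at 0 h (-0.10) or 8 h (-0.12) or replicate 2 of WT at 2 h (-0.11).

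**Figure D3:**
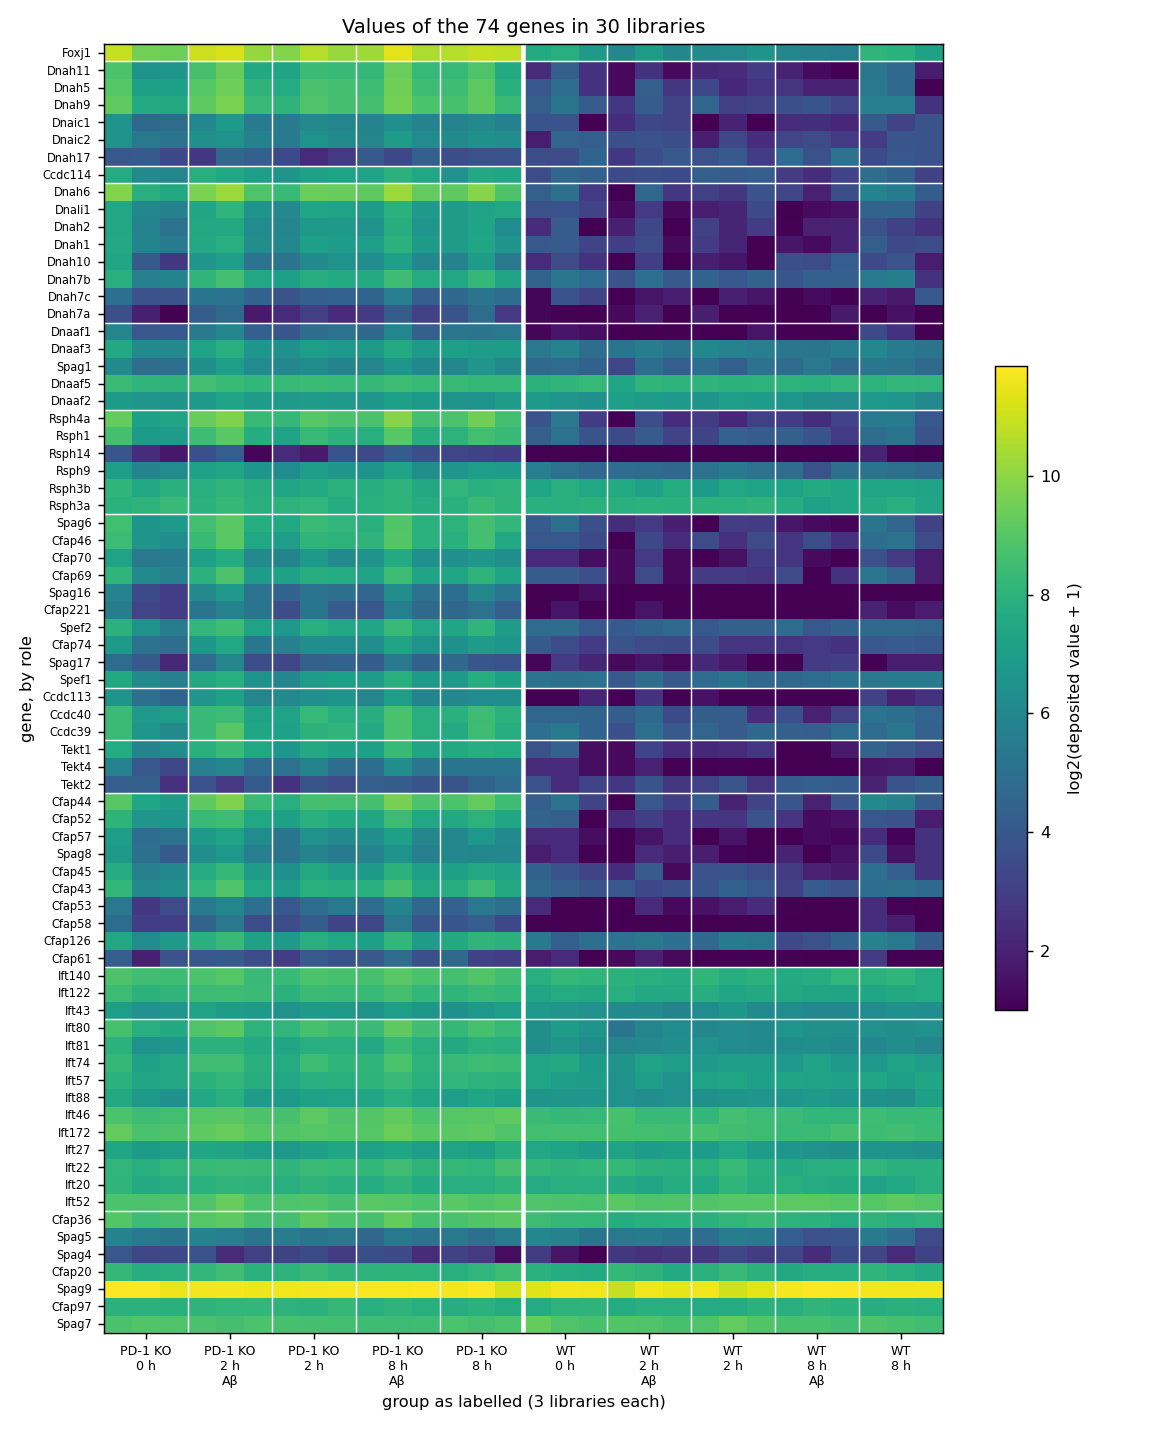
Log2 of the deposited value plus 1 for 74 genes (rows, in order of role) in 30 libraries (columns, 3 per group as labelled), with PD-1 KO groups left of WT groups. The 50 motile axoneme genes that were higher form a bright block on the left, and the intraflagellar transport rows below differ less between the sides, with a median log2 difference of 0.59.

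Within single conditions the contrast held for most motile axoneme genes. The comparisons are between different libraries but come from 1 fit. The count higher was 40 of 53 at 0 h (13.8% of all tested genes higher), 46 at 2 h (18.8%), 48 at 2 h with amyloid-beta (22.2%), 49 at 8 h (18%) and 49 at 8 h with amyloid-beta (22%). Of the 37 that pass the filter on WT libraries alone, 29, 31, 32, 33 and 33 were higher in the same order. In each, 0 of 53 were lower, against 6.88%, 13.4%, 16.7%, 9.01% and 11.7% of all tested genes in the same order. Intraflagellar transport genes were higher for 5, 8, 11, 9 and 12 of 14 in the same order, with 0 lower. Without replicate 1 of PD-1 KO at 0 h the counts there were 35 of 53 and 2 of 14. The count of 14 was 3 without replicate 1 or 3 of WT at 0 h, and at 2 h it was 5 without replicate 2 of PD-1 KO. The shares above are from the fit to all libraries. Foxj1 was higher by 2.52 ± 0.35 at 0 h, 3.88 ± 0.35 at 2 h, 4.42 ± 0.35 at 2 h with amyloid-beta, 3.04 ± 0.35 at 8 h and 4.92 ± 0.35 at 8 h with amyloid-beta (adjusted p at most 5.37e-06). Its mean was 1108 ± 673, 1220 ± 359, 1837 ± 647, 1762 ± 145 and 1821 ± 795 in the PD-1 KO groups and 180 ± 60.5, 80.5 ± 15.4, 85.0 ± 35.2, 220 ± 65.9 and 55.8 ± 4.55 in the WT groups of those conditions (SD, n = 3 each). Dnah17 and Tekt2 were called in no condition.

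The spread inside groups labelled PD-1 KO was shared by the motile axoneme genes. Replicate 1 at 0 h was the highest of its group for 50 of 53, replicate 2 at 2 h with amyloid-beta for 49, and replicate 2 at 8 h with amyloid-beta for 51. At 0 h the median gene differed 4.05-fold between the highest and the lowest PD-1 KO library, against 1.45-fold for intraflagellar transport genes. In these same libraries the astrocyte sum was 24172 against 11978 and 12678 in the other PD-1 KO libraries at 0 h, and 30408 against 16430 and 18342 at 8 h with amyloid-beta, while at 2 h with amyloid-beta it was 29114, against 29287 and 15167. The ependymal sum, 7 of whose markers are axoneme genes, was the highest of its group in each of these libraries. It was 9125 against 5304 and 5953 at 0 h, and 11075 against 8936 and 6883 at 2 h with amyloid-beta. At 8 h with amyloid-beta it was 10345 against 6487 and 6604. The microglia sum was the lowest of its group in each, at 68885, 59177 and 59628 in the same order. The part of these markers in the spread was not tested.

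Amyloid-beta medium was compared with none in each labelled genotype at 2 h and 8 h. In PD-1 KO libraries no motile axoneme gene was called at 2 h (0% of all tested genes called) or at 8 h (0.0583% called), by limma on either the values or the recovered reads, with 3 and 0 genes at an unadjusted p under 0.05. At 2 h the log2 difference was positive for 53 of 53, with a median of 0.54, and at 8 h for 36 of 53, with a median of 0.11. Foxj1 was at 2029, 2367 and 1116 with amyloid-beta and at 905, 1611 and 1144 without it at 2 h, a difference of 0.56 ± 0.35 with overlapping groups. In WT libraries at 2 h no member was called (0% of all tested genes), with 2 motile axoneme genes at an unadjusted p under 0.05. No intraflagellar transport gene was called in any of the 4 comparisons.

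In WT libraries at 8 h, 6 of 53 motile axoneme genes were lower with amyloid-beta medium and 0 higher, against 2.05% of all tested genes lower and 0.131% higher. The difference was negative for 46 of 53, with a median of -0.998 (range -2.90 to 0.82). Foxj1 was at 59.4, 57.3 and 50.7 with amyloid-beta and at 271, 243 and 145 without it, and fell by 1.91 on the log2 scale (SE 0.35, adjusted p = 0.0029). Spag6 was at 2.12, 1.47 and 1.24 with amyloid-beta and at 34.9, 22.3 and 7.52 without it (-2.90 ± 0.53). Dnali1 was at 1, 1.47 and 1.86 with amyloid-beta and at 20.7, 21.5 and 7.52 without it (-2.74 ± 0.50). Tekt1 was at 1, 1 and 2.47 with amyloid-beta and at 20.7, 15.4 and 10.03 without it (-2.71 ± 0.54). Dnah1, an inner arm heavy chain, fell by 2.06 (SE 0.55) and Ccdc40 by 1.96 (SE 0.46). The groups did not overlap for any of the 6, and with amyloid-beta all but Foxj1 were at 11.7 or below in each library.

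**Figure D4:**
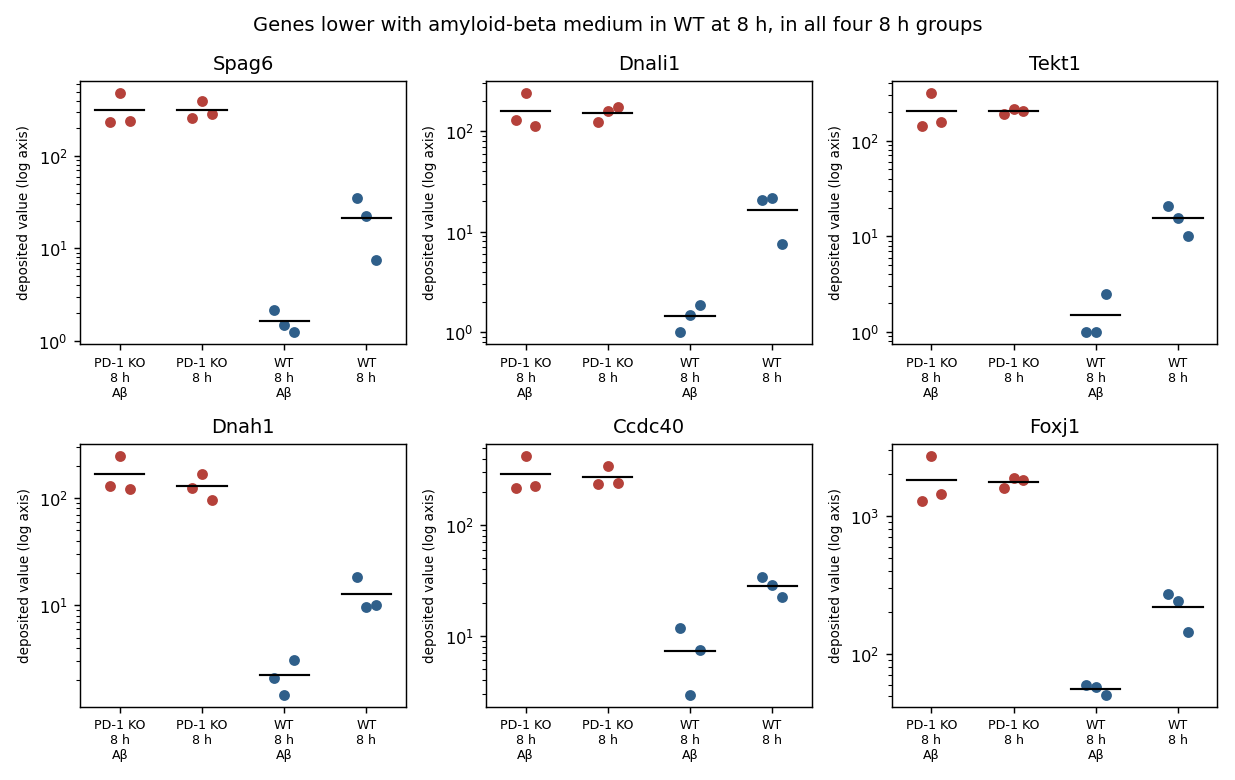
Deposited values (log axis) of the 6 motile axoneme genes lower with amyloid-beta medium in WT libraries at 8 h, in the 4 groups of that time. Points are libraries and bars are means of 3; in WT libraries all points with amyloid-beta lie below all points without it, and in PD-1 KO libraries they overlap for each gene.

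Support for this decrease depended on settings and libraries. The count was 1 of 53 with a pseudocount of 10, 2 when only the groups compared were fitted, and 0 with voom on the recovered reads. It was 3 without replicate 1 and 18 without replicate 3 of WT at 8 h. The shares of all tested genes called under these alternatives are not given, so these counts cannot be set against them. Foxj1, Spag6 and Dnali1 were called whichever library was left out. Tekt1 was not called without replicate 1 of WT at 8 h (-2.48), Ccdc40 without that library, without replicate 2 of WT at 8 h or without replicate 2 of WT at 8 h with amyloid-beta (-1.49 to -1.94), and Dnah1 only with all libraries or without replicate 3 of WT at 8 h. Markers of other cells were also lower there. Over all tested genes, 2.05% were called lower in this comparison and 0.131% higher. Of 12 astrocyte markers 4 were called lower and 12 were negative, with sums of 1344 to 1483 with amyloid-beta and 1845 to 3504 without it. Of 15 ependymal markers 3 were lower, with overlapping sums of 2351 to 2635 with amyloid-beta and 2588 to 3004 without it. Of 8 neuron markers 2 were lower, with sums of 567.7 to 623.4 with amyloid-beta and 764.6 to 1044 without it. Of 12 oligodendrocyte lineage markers 4 were lower, with overlapping sums of 2538 to 3489 with amyloid-beta and 3294 to 3857 without it. Of 14 microglia and macrophage markers 1 was lower, and their sums were 80541 to 80942 with amyloid-beta and 89413 to 106888 without it. The part of these cells in the result was not tested. The difference of the amyloid-beta effect between the labelled genotypes was itself not called for any member, with 0% of all tested genes called at 8 h and 0.0510% at 2 h. At 8 h 16 motile axoneme genes had an unadjusted p under 0.05 (median 1.06, PD-1 KO minus WT), at 2 h 3 did, and Foxj1 at 8 h had 1.88 ± 0.49 (adjusted p = 0.292).

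Time without amyloid-beta was compared in each labelled genotype. In PD-1 KO libraries, no motile axoneme gene was called at 2 h against 0 h (0.357% of all tested genes higher and 0.277% lower) or at 8 h against 0 h (1.5% higher and 1.79% lower), with 1 and 8 genes at an unadjusted p under 0.05 and 0 called with voom on the recovered reads. The 8 h difference was positive for 50 of 53 (median 0.74). Without replicate 1 of PD-1 KO at 0 h, 11 of 53 were higher at 8 h, and 3 of 14 intraflagellar transport genes, of which 0 were called with it. Shares of all tested genes in this paragraph are from the fit to all libraries. Those without a library are not given, so counts without a library cannot be set against them. In WT libraries at 2 h, Spag6 alone was called, at 4.69 ± 3.21 against 19.8 ± 9.89 at 0 h (-2.00 ± 0.53, adjusted p = 0.0256, against 2.16% of all tested genes lower and 2.59% higher). There, 9 motile axoneme genes had an unadjusted p under 0.05, and the difference was negative for 41 of 53 (median -0.37). Foxj1 was at 68.63, 75.03 and 97.95 at 2 h against 196.5, 229.7 and 112.4 at 0 h, without overlap, a difference of -1.10 ± 0.35 that was not called (adjusted p = 0.0636). Without replicate 1 or 3 of WT at 0 h, 3 genes were called lower. Spag6 was not called with voom on the recovered reads, with a pseudocount of 10 (-0.99), with only the groups compared, or without replicate 2 of WT at 0 h (-1.64) or replicate 1 of WT at 2 h (-1.36). At 8 h against 0 h in WT libraries, 0 motile axoneme genes were called by limma or with voom, with 1 at an unadjusted p under 0.05. Ift27 was lower, at 97.2, 92.7 and 85.2 against 180, 156 and 126 at 0 h (-0.73 ± 0.19), as was Spag5 of the mitotic spindle (-1.14 ± 0.34), against 3.05% of all tested genes lower and 3% higher. Neither was called with voom, with only the groups compared, or without replicate 1 or 2 of WT at 0 h or replicate 3 of WT at 8 h. The genotype difference of the time effect was called for no motile axoneme gene at 2 h (0.736% of all tested genes called) or at 8 h (0.270%), with 9 and 1 at an unadjusted p under 0.05; without replicate 1 of PD-1 KO at 0 h it was called for 5 at 2 h, and without replicate 1 or 3 of WT at 0 h for 1. Comparisons of time, genotype and amyloid-beta share libraries and are not independent.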

How the data were processed

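The deposited table gives 1 signal value per gene for 30 libraries. Per the submitters' processing notes, HISAT 0.1.5, Partek 6.6, R 3.0.2 and DESeq2 were used with the mm10 build. Their roles, the annotation and the counting program are not given in the sources used here. The deposited signal values are gene counts divided by a factor per library, with a floor of 1, as the values show: above the floor each is a whole multiple of 1 step within 0.05. The floor hides up to 4 reads in a library, and every gene reaches 12.2 in some library.

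Values were analysed as log2(value + 1), so folds of low genes are understated. Genes reaching 10 in 3 of 30 libraries were tested (13722). A mean per group was fitted with limma 3.58.1 (R 4.3.3, intensity trend, 20 residual degrees of freedom), with Benjamini-Hochberg adjustment within each of 18 comparisons and a threshold of 0.05. The steps were tested on simulated data. Members, lists and roles were chosen with earlier results of these data known. Named in full were Foxj1, up to 3 members of highest mean per role, up to 5 called members per direction and comparison with the largest difference, and members of counts of 5 or fewer. A fit to counts was planned but not run, since the floor hides reads; voom on recovered reads was added after the data were seen. Alternatives were other pseudocounts, filters and scalings, fits to the compared groups alone and leaving out each library. Positions are from GENCODE vM21 (GRCm38). Pairs of libraries within groups all differed by more than sampling noise.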

Additional observations from a re-analysis of the deposited data

How the results depend on the processing

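No paired analysis was possible because the replicates carry no number in the labels that is shared between groups. A planned count model on recovered reads was not run. Over all conditions, 50 of 53 motile axoneme genes were called with pseudocounts of 0 and 10, without a filter, with TMM factors and with voom. The count was 42 at a filter of 50, which tests fewer genes, and 50 to 51 when libraries were left out. With quantile normalization 50 were also called, but Dnah17 was among them as lower and Rsph3a was not called. Intraflagellar transport calls at 0 h numbered 3 with only the groups compared and 2 to 6 without single libraries, and at 2 h 5 to 8. For amyloid-beta in WT libraries at 8 h, the motile axoneme calls were 1 with a pseudocount of 10, 0 with voom, 2 with only the groups compared, and 3 to 18 without single libraries. For 2 h against 0 h in WT libraries they were 0 in each of these settings and 0 to 3 without single libraries. For 8 h against 0 h in PD-1 KO libraries they ran from 0 to 11 without single libraries, and for the genotype difference of the 2 h effect from 0 to 5. Shares of all tested genes under these alternatives were not set beside the counts. The cause was not tested. Quantile normalization turned Dnaaf2 to -0.14, Spag4 to -0.69 and Tekt2 to -0.50. Of 1890 values of named genes under alternatives, 1825 kept direction and call, 49 lost their call, 13 gained one and 3 reversed. Depth limits low genes: 29 motile axoneme genes were at the floor in some WT library, and their folds depend on the pseudocount.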

Other observations

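Genes of ciliary trafficking outside the Ift symbols were more often higher than lower in libraries labelled PD-1 KO. Of 33 genes of transport particles, ciliary motors and the BBSome, a coat that carries membrane proteins of cilia, 22 were higher, 2 lower and the rest not called over all conditions by limma (median log2 difference 0.42). Over all tested genes 30.3% were higher and 29.1% lower. Of the 32 listed genes that pass the filter on WT libraries alone, 21 were higher and 2 lower. The genes below are named after their values were seen. Dync2h1, the heavy chain of the motor that returns transport trains, averaged 350 ± 111 in PD-1 KO libraries and 126 ± 30.9 in WT libraries (SD, n = 15 each), a difference of 1.44 ± 0.12. Its light intermediate chain Dync2li1 was higher by 1.95 ± 0.12. Kif3a, a subunit of the kinesin that drives trains outward and also carries other cargo, was at 1048 ± 104 in PD-1 KO libraries and 1348 ± 209 in WT libraries, and fell by 0.35 on the log2 scale (adjusted p = 2.69e-09). Its partner Kif3b differed by -0.06 ± 0.04 (adjusted p = 0.217). Ttc21a averaged 267 ± 118 in PD-1 KO libraries and 6.33 ± 7.35 in WT libraries (5.54 ± 0.23), while its relative Ttc21b averaged 142 ± 17.5 in PD-1 KO libraries and 155 ± 12.4 in WT libraries, and was lower by 0.14 (adjusted p = 0.0495). Bbs1 was higher by 1.69 ± 0.13. The list was drawn up with earlier results of these data known.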
